A study of Mus musculus with 4 samples.

Results

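The genes described here encode axonal cell adhesion proteins and their secreted and membrane partners: the Caspr genes Cntnap1 and Cntnap2, the contactins Cntn1 and Cntn2, the neurofascin gene Nfasc, the 4 LGI genes Lgi1 to Lgi4, and Adam22. They were measured in cultured mouse cortical neurons after calmodulin knockdown, and all 10 of 10 were found among 19938 genes, each read by 1 probe set with 1 gene symbol. The list was chosen from results of these same arrays: Cntnap1 and Lgi3 had passed the test of knockdown against rescue, and the other genes are their relatives and partners. The values of Cntnap1 and Lgi3, and those of all members in knockdown against rescue, are therefore given as a description with no p-value, and where these genes stand in a count of calls, the choice of the list fixed that.

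The cultures came from cortex of newborn pups (age 0 days) with a mixed SV129 and C57BL/6 strain, which the labels give as Syt1 deficient or wild type without saying which array came from which. Knockdown cultures received lentivirus with shRNAs against the calmodulin genes (2 samples), and rescue cultures received the same shRNAs plus a wild-type calmodulin that resists them (2 samples). Control cultures received control lentivirus, all infections were made at 5 days in vitro, and RNA was taken at 14 to 15 days. The culture medium held serum and Ara-C, an inhibitor of dividing cells. Each deposited value is the ratio of a test array to the control array of the same repeat, so that 1 on the linear scale, or 0 on the log2 scale, is equality with control. The labels do not state whether the 2 repeats used separate cultures, and the p-values then cover only the spread of these samples, which may be technical. The ratios hold no signal level, so the neuronal identity of the cultures could not be checked against marker levels, and the small number of arrays limits the precision.

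Myelinated axons are divided into domains by the proteins of these genes. At the paranode, beside the node of Ranvier, Caspr (Cntnap1) and the contactin of Cntn1 form a complex on the axon that binds a glial isoform of neurofascin. At the juxtaparanode, the protein of Cntnap2 and the contactin of Cntn2 gather Kv1 potassium channels, and a neuronal neurofascin isoform anchors the node and the axon initial segment. LGI proteins are secreted by neurons or glia and bind receptors of the ADAM22 family. LGI1 with ADAM22 acts at synapses and axons and is known in humans as an epilepsy gene, and Lgi4 in mice is needed for myelination of peripheral nerves.

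For the juxtaparanodal pair and for Lgi1, the 250 bases before an annotated start are shown, since Cntn2 and Lgi1 lay on opposite sides of control in the knockdown while Cntnap2 straddled it. The Cntn2 window lies within the annotated span of the gene (chr1:132509425-132543251), so the start it precedes is an internal one. RefSeq (GRCm38.p6) held such windows for 7 of the 10 genes, and Cntnap1, Lgi3 and Lgi4 had no entry. Capitals mark a match, on either strand, to the CRE half-site TGACG, the GC box GGGCGG, the TATA box TATAAA or the E-box CACGTG. 
Cntn2, chr1:132542941-132543190, minus strand: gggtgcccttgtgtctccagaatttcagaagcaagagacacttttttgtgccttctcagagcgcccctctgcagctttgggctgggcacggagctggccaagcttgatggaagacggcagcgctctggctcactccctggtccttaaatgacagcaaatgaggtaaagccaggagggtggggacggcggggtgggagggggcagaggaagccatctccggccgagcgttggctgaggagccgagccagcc
Cntnap2, chr6:45059811-45060060, plus strand: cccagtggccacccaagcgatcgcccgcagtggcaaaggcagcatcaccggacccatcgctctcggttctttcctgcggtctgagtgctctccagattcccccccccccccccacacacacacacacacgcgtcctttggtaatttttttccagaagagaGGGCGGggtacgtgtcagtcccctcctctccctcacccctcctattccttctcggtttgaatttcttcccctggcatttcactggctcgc
Lgi1, chr19:38264437-38264686, plus strand: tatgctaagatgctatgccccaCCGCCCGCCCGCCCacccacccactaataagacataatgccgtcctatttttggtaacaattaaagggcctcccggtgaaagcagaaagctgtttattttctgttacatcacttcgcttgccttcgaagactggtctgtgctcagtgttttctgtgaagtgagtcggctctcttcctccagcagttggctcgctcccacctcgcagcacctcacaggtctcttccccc
The Cntn2 window held none of the 4 motifs, the Cntnap2 window shown held 1 GC box, and the Lgi1 window held 3 GC boxes that overlap in 1 run. A second Cntnap2 window, not shown (chr6:47244146-47244395), held none of the 4 motifs and had 45.2% G and C. Of 32851 such windows in the genome table, 32.7% held a GC box, 17.8% the CRE half-site, 12.4% the TATA box and 6.02% the E-box. Bases G and C made up 61.2% of the Cntn2 window, 59.6% of the Cntnap2 window shown and 52.4% of the Lgi1 window, where the median of all windows was 52.4%. Such matches describe letters only.

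In the knockdown, Cntnap1, Cntn2 and Lgi3 stood about 2-fold above control and Lgi1 below it, while Cntn1, Cntnap2, Nfasc and Adam22, partners of those genes, lay near control. In the rescue, all 10 genes lay within 1.5-fold of control on average. Of the 10 members, 3 passed the threshold as higher in the knockdown than in control (limma, Benjamini-Hochberg adjusted p under 0.05), against 0.135% of all genes, and 0 passed as lower, against 0.171% of all genes. The 3 were Cntnap1, Cntn2 and Lgi3; 0 of them passed under quantile normalization, with every probe set tested or without either rescue replicate. Nothing is read from their number, since the list was drawn up with these values known. By size alone, 3 members were at least 1.5-fold above control in both knockdown repeats, against 0.281% of all genes, and 1, Lgi1, at least 1.5-fold below it, against 0.757%. The limit of 1.5-fold was chosen after the values were seen. In such bulk samples, more RNA per cell and more cells that express a gene cannot be told apart.

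**Figure D1:**
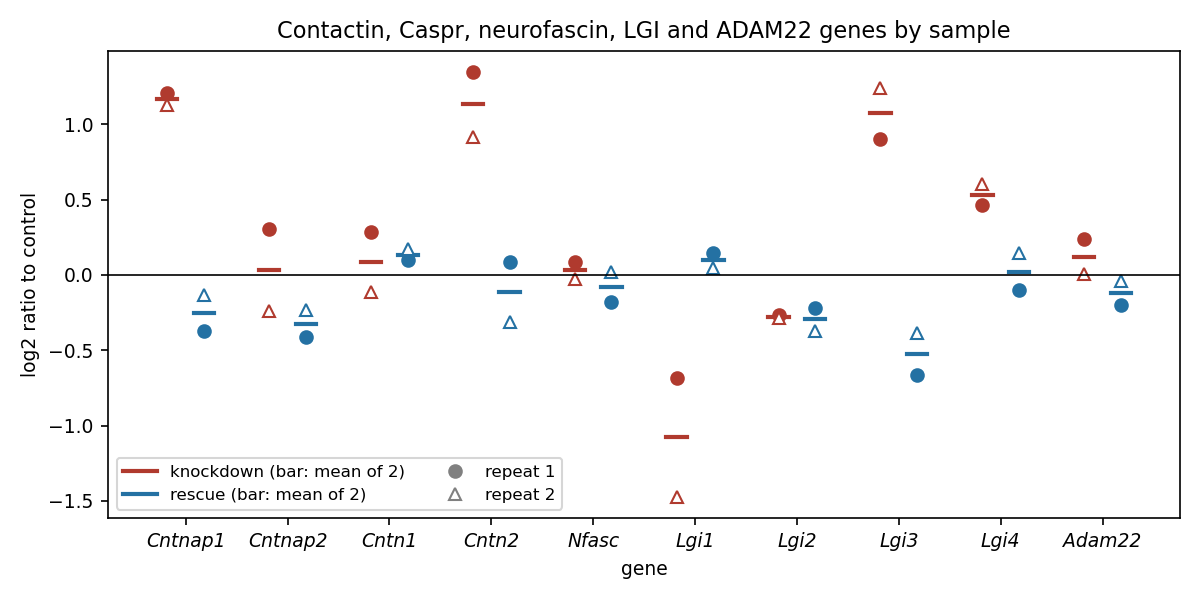
Log2 ratio to control (vertical axis) of the 10 genes in each knockdown sample (red) and each rescue sample (blue); filled circles are repeat 1, open triangles repeat 2, and bars the mean of 2. Knockdown values of Cntnap1, Cntn2 and Lgi3 all lie above 0.9, and those of Lgi1 lie at -0.68 and -1.47, while rescue values of the 10 genes lie between -0.66 and 0.17.

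Among the paranodal genes, Cntnap1, the axonal Caspr protein, was at 2.31 and 2.19 times control in the 2 knockdown repeats, against 0.771 and 0.913 times control in the rescue. The groups did not overlap, and both knockdown values were above control and both rescue values below it. The knockdown mean was 2.25-fold of control (log2 1.17, SE 0.12, n = 2), the rescue mean 0.839-fold (log2 -0.25, SE 0.12, n = 2). Here and below, the SE is that of the limma fit, which pools the spread of both groups and draws it towards that of all genes. The SD of the 2 log2 values of Cntnap1 was 0.055 in the knockdown and 0.173 in the rescue. Ranked by their mean in the knockdown, Cntnap1 was number 15 from the top of 19938 genes. Its axonal partner Cntn1 was at 1.22 and 0.926 times control in the knockdown and at 1.07 and 1.13 times control in the rescue. The 2 knockdown values of Cntn1 lay on either side of control and enclosed both rescue values. Its knockdown mean was at 0.09 on the log2 scale (SE 0.13, n = 2, limma adjusted p = 0.791). Within the same array, the log2 ratio of Cntnap1 exceeded that of Cntn1 by 0.92 and 1.24 in the knockdown and differed from it by -0.47 and -0.30 in the rescue, where it was the lower of the pair.

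The neurofascin gene Nfasc, whose glial and neuronal isoforms share the probe set and cannot be told apart here, was at 1.06 and 0.979 times control in the knockdown and at 0.881 and 1.01 times control in the rescue. The groups overlapped. The knockdown mean was 0.03 on the log2 scale (SE 0.12, n = 2, limma adjusted p = 0.930) and the rescue mean -0.08 (adjusted p = 0.916).

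Among the juxtaparanodal genes, Cntn2, a contactin anchored to the axon surface, was at 2.54 and 1.89 times control in the knockdown, against 1.06 and 0.804 times control in the rescue. Every knockdown value was above every rescue value, and the rescue values lay on either side of control. Cntn2 rose 2.19-fold in the knockdown (log2 1.13, SE 0.15, n = 2, limma adjusted p = 0.0397) and ranked number 16 from the top of all genes. The call ended under 5 of the 10 alternatives of the fit, among them quantile normalization (log2 1.06, adjusted p = 0.0954), a fit of the knockdown columns alone (adjusted p = 0.0728) and a test over every probe set (adjusted p = 0.395). Leaving out either rescue replicate gave the same fit as the knockdown columns alone, so these alternatives are not separate checks. Its rescue mean was -0.11 on the log2 scale (SE 0.15, adjusted p = 0.900).

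Cntnap2, which pairs with the Cntn2 protein at the juxtaparanode, was at 1.23 and 0.847 times control in the knockdown and at 0.751 and 0.851 times control in the rescue. The 2 knockdown repeats lay on opposite sides of control, and both rescue repeats below it. Its knockdown mean was 0.03 on the log2 scale (SE 0.15, adjusted p = 0.941, n = 2 in limma) and its rescue mean -0.32 (SE 0.15, adjusted p = 0.686). The log2 ratio of Cntn2 exceeded that of Cntnap2 by 1.04 and 1.15 in the knockdown arrays, and differed from it by 0.50 and -0.08 in the rescue arrays. In both the paranodal and the juxtaparanodal pair, the knockdown held 1 gene far above control and a partner near it. Since Cntnap1 was chosen by its values in these arrays, nothing is read from this likeness.

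Cntn2 and Nfasc are next to each other among the protein-coding genes of mouse chromosome 1 in RefSeq. In the knockdown, the log2 ratio of Cntn2 exceeded that of Nfasc by 1.26 and 0.95. Knockdown log2 ratios were -0.14 and -0.01 for Tmem81, on the other side of Cntn2, and -0.21 and -0.45 for Lrrn2, beyond Nfasc. Neither neighbour shared the value of Cntn2.

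The LGI genes went separate ways. Lgi3, which encodes a secreted LGI protein, was at 1.87 and 2.36 times control in the knockdown, against 0.632 and 0.765 times control in the rescue. The groups lay on opposite sides of control and did not overlap. The knockdown mean was 2.10-fold of control (log2 1.07, SE 0.14, n = 2; number 19 from the top), and the rescue mean 0.695-fold (log2 -0.52, SE 0.14, n = 2). Of the 10 members, Lgi3 was the one farthest below control in the rescue.

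Lgi1 was at 0.622 and 0.361 times control in the knockdown, against 1.11 and 1.03 times control in the rescue. Both knockdown values lay below both rescue values, but the 2 knockdown repeats were far apart (log2 SD 0.556, against 0.068 in the rescue). The knockdown mean was 0.474-fold of control (log2 -1.08, SE 0.18, n = 2; number 32 from the bottom of all genes). Pairing the samples by repeat, as a block in the fit, changed its call: Lgi1 missed the threshold without the block (limma adjusted p = 0.0618) and passed it with the block (adjusted p = 0.00788). Here and below, the block also takes out the spread of the control array between repeats. Its p-values against control thus leave out part of the error of that comparison. Also, without knockdown replicate 1 the value was -1.47 and without knockdown replicate 2 it was -0.68, each resting on 1 knockdown sample. In the limma fit of the knockdown columns alone, the adjusted p was 0.131. The rescue mean was 0.10 (SE 0.18, adjusted p = 0.933). In the knockdown, the log2 ratio of Lgi3 exceeded that of Lgi1 by 1.59 and 2.71, and in the rescue it differed by -0.81 and -0.43, Lgi3 being the lower.

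Lgi4, the LGI gene known from peripheral myelination, was at 1.38 and 1.52 times control in the knockdown, against 0.932 and 1.10 times control in the rescue. The groups did not overlap. The knockdown mean was 0.53 on the log2 scale (SE 0.12, n = 2, limma adjusted p = 0.108; 0.0296 in the paired fit, with repeat as a block). Lgi2, another secreted LGI protein, was at 0.830 and 0.821 times control in the knockdown and at 0.860 and 0.772 times control in the rescue. All 4 of its values lay below control, the groups overlapped, and neither mean passed (log2 -0.28, adjusted p = 0.303 in the knockdown; -0.30, adjusted p = 0.639 in the rescue).

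The receptor gene Adam22 was at 1.18 and 1.00 times control in the knockdown, against 0.870 and 0.971 times control in the rescue. The groups did not overlap, but all 4 values were close to control. The knockdown mean was 0.12 on the log2 scale (SE 0.12, n = 2, limma adjusted p = 0.668) and the rescue mean -0.12 (adjusted p = 0.871). In the knockdown arrays, the log2 ratio of Lgi1 minus that of its receptor gene Adam22 was -0.92 and -1.48, and that of Lgi3 exceeded Adam22 by 0.67 and 1.23.

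Ordered by mean log2 ratio in the knockdown, the members ran from Cntnap1 (1.17), Cntn2 (1.13) and Lgi3 (1.07) through Lgi4 (0.53), Adam22 (0.12), Cntn1 (0.09), Cntnap2 (0.03) and Nfasc (0.03) to Lgi2 (-0.28) and Lgi1 (-1.08). The repeats of the first 3 overlapped one another, as did those of Adam22, Cntn1, Cntnap2 and Nfasc. The repeats of Lgi4 overlapped with none of the other members. The median of the 10 was 0.10 in the knockdown and -0.12 in the rescue, where the median of all genes was 0.00 and -0.01.

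In rescue against control, 0 of the 10 members passed the threshold, as did 0% of all genes in limma (1484 genes had an unadjusted p under 0.05, and no adjusted p was below 0.154). The members' adjusted p ranged from 0.639 for Lgi2 to 0.983 for Lgi4, leaving out Cntnap1 and Lgi3. None was 1.5-fold from control in both rescue repeats, where 0.16% of all genes were above and 0.181% below by that much. In the paired fit 0 members passed as well.

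The knockdown can also be set against the rescue within a repeat, where the shared control array drops out of the ratio. Lgi3 was 2.96-fold and 3.09-fold higher in the knockdown than in the rescue in repeats 1 and 2, Cntnap1 2.99-fold and 2.39-fold, and Cntn2 2.40-fold and 2.34-fold. Lgi1 was at 0.563 and 0.349 of its rescue value. Cntn2 and Lgi3 differed little between repeats (SD 0.02 and 0.04 on the log2 scale), Cntnap1 and Lgi1 more (SD 0.23 and 0.49). These are the values by which the list was chosen, and they carry no test here.

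By the 1.5-fold limit in both repeats, 3 members were higher in the knockdown than in the rescue (0.522% of all genes) and 1 was lower (0.958% of all genes). Lgi4, at 1.48-fold and 1.37-fold, lay just inside the limit. The test of this contrast, by which the list was chosen, called 0.0401% of all genes higher and 0.0301% lower in the knockdown. Cntnap1 and Lgi3 were among the first because the list was built on them, 0 members were among the second, and nothing is read from either count. Neither gene passed under quantile normalization, with column medians set to 0, with every probe set tested or with probe sets of several symbols kept. The same held without either rescue replicate, a fit that leaves 1 rescue sample. The other 5, Adam22, Cntn1, Cntnap2, Lgi2 and Nfasc, differed between knockdown and rescue by at most 1.64-fold in either repeat, and Cntn1, Cntnap2, Lgi2 and Nfasc changed direction between repeats.

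**Figure D2:**
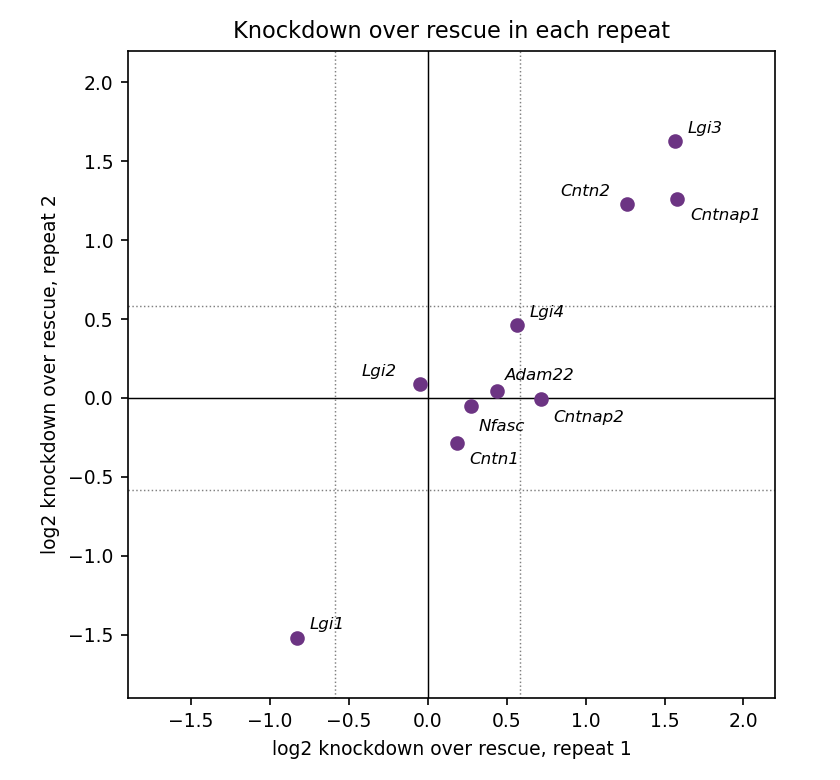
Log2 ratio of knockdown over rescue in repeat 1 (horizontal axis) and repeat 2 (vertical axis), 1 point per gene; dotted lines mark 1.5-fold. Lgi3, Cntnap1 and Cntn2 lie beyond 1.5-fold at the upper right (log2 1.23 to 1.63), Lgi1 at the lower left (-0.83 and -1.52), and the other 6 genes inside at least 1 limit.

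The genes with the profile most like that of Cntnap1 over the 4 samples, by Euclidean distance of the log2 ratios against 17159 other named genes, were Rwdd2a (distance 0.25), Slc2a6 (0.26), Map1a (0.31), Pnma3 (0.39) and Aifm3 (0.48). Map1a encodes a microtubule-associated protein of mature neurons. For Lgi3 they were Aifm3 (0.41), Cntnap1 (0.50), Pnma3 (0.52), B3galt5 (0.54) and Rian (0.62), the last an imprinted noncoding RNA. Cntnap1 was thus the second nearest gene to Lgi3, and Lgi3 number 6 from Cntnap1. Pnma3 and Aifm3 appeared in both lists. With 4 samples and shared control arrays this likeness is a description only.

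Partners of these proteins were read from 4 further lists. Of the 9 other contactin and Caspr genes, 0 passed in any comparison and their median in the knockdown was -0.03. Cntn5, another neural contactin, was at 0.708 and 0.481 times control in the knockdown, against 0.498 and 1.01 times control in the rescue. Cntnap5a had a knockdown mean of -0.48 and Cntnap5c one of -0.47 (limma adjusted p = 0.123 and 0.192; paired fit 0.0391 and 0.0412), and Cntn3 one of -0.16. Cntn6, picked out after its values were seen, was at 1.09 and 1.04 times control in the knockdown, against 0.554 and 0.575 times control in the rescue. Its rescue mean was -0.82 on the log2 scale (limma adjusted p = 0.414; paired fit 0.0474), and its groups did not overlap.

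The list of other LGI receptors and the Kv1 channel complex had 11 measured genes, 0 of which passed, with a median of -0.07 in the knockdown. The remaining ADAM22-family receptors Adam11 and Adam23, named for their role after their values were seen, had knockdown means of 0.12 and 0.10. Of the 4 scaffold genes of the PSD-95 family, whose proteins bind ADAM22, 0 passed. Dlg1, outside the rule for named genes, had a knockdown mean of 0.05 with its 2 repeats on either side of control. Dlg3 had a knockdown mean of -0.65, Dlg4, which encodes PSD-95 itself, one of -0.61 and Dlg2 one of -0.47 (limma adjusted p = 0.0737, 0.0886 and 0.135; paired fit 0.0167, 0.0201 and 0.0482). The Kv1 channel gene Kcna4 was at -0.82 (adjusted p = 0.0986; paired fit 0.0241).

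Of 14 measured genes of the axon initial segment and node, 1 passed as higher in the knockdown (0.135% of all genes did) and 1 as lower (0.171%). Their median was -0.17. Scn4b, a sodium channel beta subunit, was at 2.31 and 6.81 times control in the knockdown, against 1.09 and 1.06 times control in the rescue (log2 1.99 in the knockdown, SE 0.30, limma adjusted p = 0.0491). Kcnq3, a potassium channel subunit held at the initial segment, was at 0.492 and 0.428 times control in the knockdown, against 0.713 and 0.947 times control in the rescue (log2 -1.12, adjusted p = 0.0281). Scn4b was no longer called with probe sets of several symbols kept, nor Kcnq3 after quantile normalization, and neither was called without either rescue replicate or with every probe set tested, where 0 genes of the whole table passed. Trim46 was at -0.58 in the knockdown (adjusted p = 0.104; paired limma fit 0.0296) and Scn2a at -0.42 (adjusted p = 0.282). Of 6 membrane skeleton genes 0 passed. Epb41l3, whose protein 4.1B binds the cytoplasmic tails of Caspr proteins, was at 1.48 and 1.59 times control in the knockdown, against 0.785 and 0.825 times control in the rescue. Its groups lay on opposite sides of control, as for Cntnap1 (knockdown log2 0.62, SE 0.12, limma adjusted p = 0.0762; paired fit 0.0199).

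**Figure D3:**
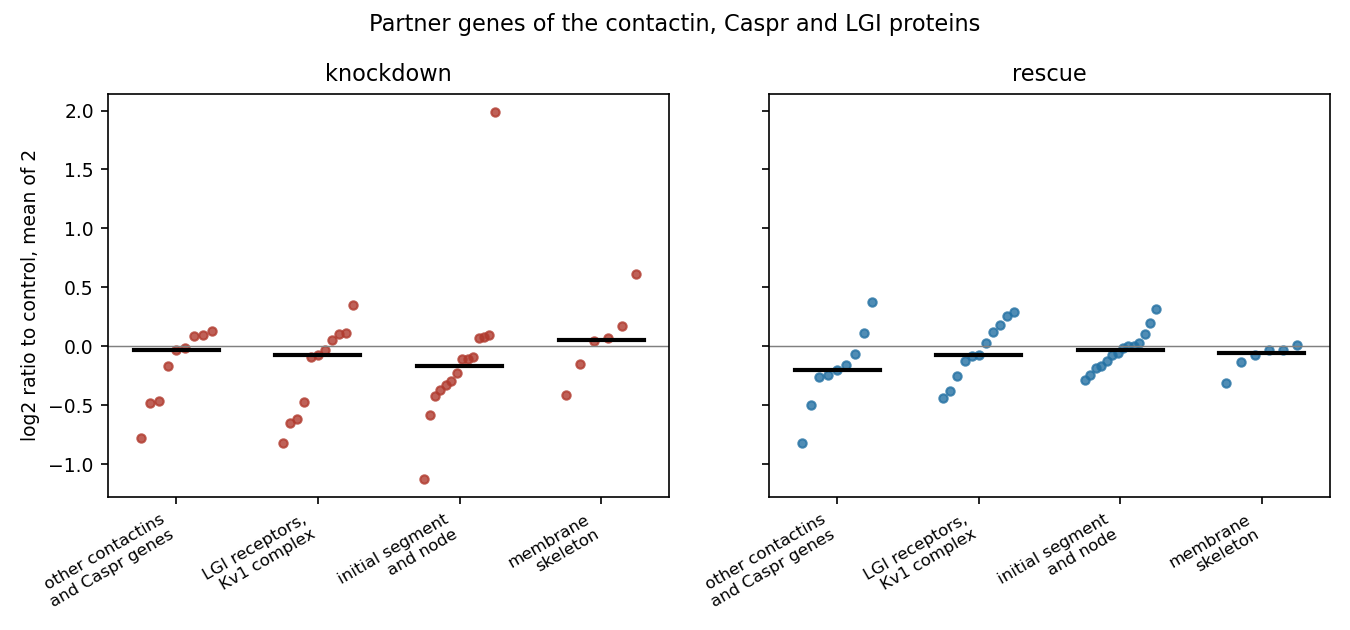
Mean log2 ratio to control (vertical axis) of genes in 4 lists in the knockdown (left, red) and the rescue (right, blue); points are genes and black bars list medians. Knockdown medians lie between -0.17 and 0.05, with Scn4b at 1.99 and Kcnq3 at -1.12 as the outermost points.

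Marker lists of cell types that cortical cultures can hold were read in the same samples. Of 10 parvalbumin and fast-spiking neuron markers, Syt2, Scn4b, Vamp1 and Nefh passed the threshold as higher in the knockdown (0.135% of all genes did). As lower, 0 passed (0.171% of all genes). In both knockdown repeats 5 of the 10 were above control and 2 below it, against 30.5% and 31.1% of all genes. Tac1, named after its values were seen, was at 0.656 and 0.591 times control in the knockdown, against 0.887 and 0.482 in the rescue. Its knockdown adjusted p was 0.158 in limma and 0.0304 in the paired fit. The list median was 0.23 in the knockdown and -0.17 in the rescue. Syt2, a synaptotagmin of fast-spiking terminals, was at 5.31 and 5.95 times control in the knockdown, against 0.838 and 0.888 times control in the rescue, while Pvalb itself was at 0.993 and 0.855, against 1.31 and 0.832. Of 12 astrocyte markers 0 passed, 11 were above control in both knockdown repeats (30.5% of all genes were), and their median was 0.35 in the knockdown and -0.10 in the rescue. Sox9, an astrocyte transcription factor, was at 1.36 and 1.35 times control in the knockdown, against 0.861 and 0.879 times control in the rescue (knockdown adjusted p = 0.134; paired limma fit 0.0476). Of 6 excitatory neuron markers 0 passed and 6 were below control in both knockdown repeats (31.1% of all genes were), with a median of -0.50 in the knockdown and -0.12 in the rescue. Slc17a7, the vesicular glutamate transporter of cortical projection neurons, was at 0.675 and 0.486 times control in the knockdown, against 0.956 and 0.890 times control in the rescue (knockdown adjusted p = 0.0668; paired limma fit 0.0129).

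Oligodendrocyte and myelin markers, 15 of 17 measured, had a median of 0.02 in the knockdown and 0.01 in the rescue, with 0 past the threshold. Medians in the knockdown were -0.37 for 9 other interneuron markers, -0.06 for 10 microglia markers and 0.13 for 7 vascular markers, all with 0 past the threshold. In the rescue they were -0.54, -0.19 and 0.06. The knockdown medians differed in sign between repeats 1 and 2. They were 0.14 and -0.67 for interneuron, -0.41 and 0.13 for microglia and -0.06 and 0.39 for vascular markers. Of the 9 interneuron markers, 7 were below control in both rescue repeats (29.8% of all genes were) and 0 above it. In both knockdown repeats 4 were below control and 1, Slc32a1, above it (31.1% and 30.5% of all genes). Slc32a1, named after its values were seen, was at 1.28 and 1.27 times control in the knockdown, against 0.753 and 0.871 in the rescue. Gad1 was at 0.638 and 0.453 times control in the knockdown and at 0.560 and 0.532 in the rescue. Its limma adjusted p was 0.0583 and 0.414, and 0.00942 and 0.0482 in the paired fit. Of the 107 measured genes in the 11 lists, 5 passed in knockdown against control and 25 in the paired fit. The part of cell composition in the values of Cntnap1, Cntn2, Lgi3 and Lgi1 was not tested.

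**Figure D4:**
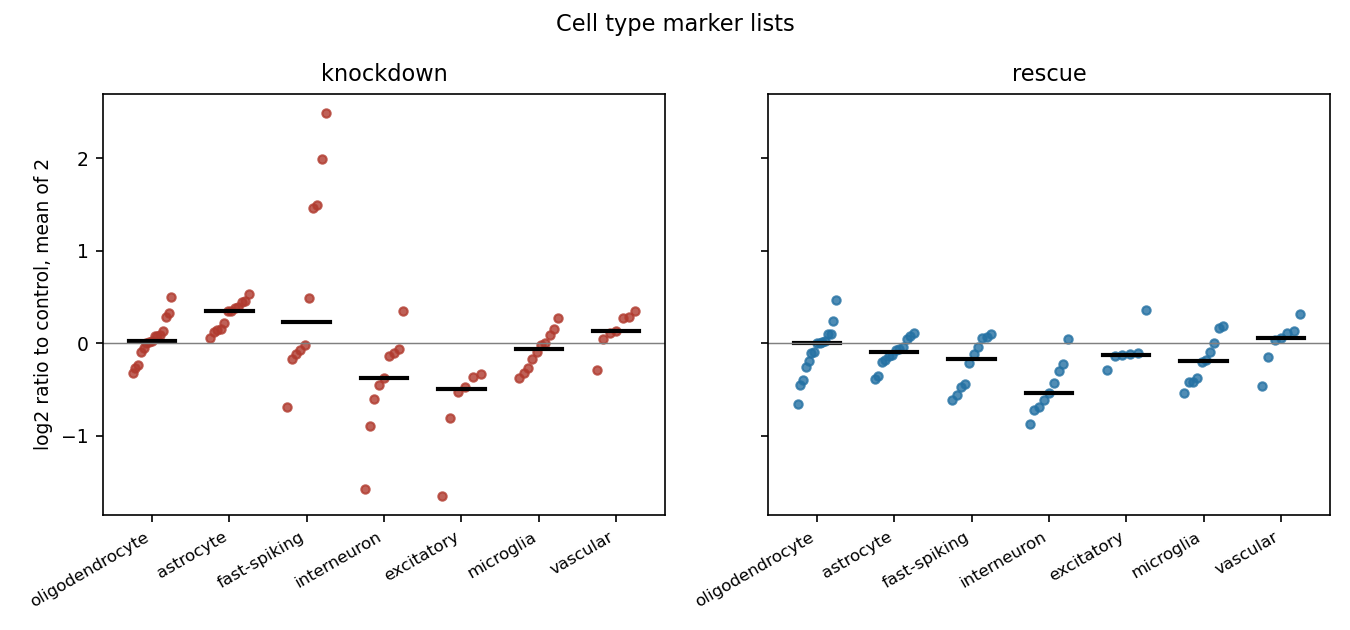
Mean log2 ratio to control (vertical axis) of cell type markers in the knockdown (left, red) and the rescue (right, blue); points are genes and black bars list medians. In the knockdown 4 fast-spiking markers lie above 1.4, the astrocyte median is 0.35 and the excitatory median -0.50.

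Calmodulin genes were read in the same arrays. Calm2 was at 0.473 and 0.304 times control in the knockdown and at 0.559 and 0.411 times control in the rescue. Calm3 was at 0.401 and 0.189 times control in the knockdown and at 0.188 and 0.0853 times control in the rescue. Ratios spread most widely in knockdown repeat 2 (SD 0.349 across genes on the log2 scale, against 0.232 to 0.243 in the other 3 samples), and in that sample Lgi1 lay farther from control than in repeat 1, while Cntn2 lay nearer to it.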

How the data were processed

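Affymetrix mouse Gene 1.0 ST arrays were read in 4 samples, 2 knockdown and 2 rescue. Per the labels' design description, the authors deposited linear ratios, each of a test array over the control array of its own repeat. Background correction, summarization, normalization and genome build are not given in the sources used here, and the control arrays were not analysed here. The table held 35399 probe sets, and the platform annotation gave 21789 of them exactly 1 symbol, 1621 several and 11989 none. Symbols of 21698 were matched by Entrez identifier to RefSeq (GRCm38.p6), which changed 0. Log2 ratios were averaged per symbol (19938 genes).

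Testing used limma 3.58.1 (R 4.3.3; lmFit, eBayes, two-sided), with a coefficient per group, no block, all 4 samples in the fit (2 residual and 6.11 prior degrees of freedom) and Benjamini-Hochberg adjustment over all 19938 genes. Each SE printed is the moderated one of this fit, its variance pooled over both groups and drawn towards that of all genes. It is not the SE of the 2 values alone. Both groups of a repeat share 1 control array. The labels tie each replicate number to a common repeat date, which pairs the samples. Deviations of paired samples correlated across genes at 0.305 (Pearson), and the fit with the repeat as a block is given beside single genes in the text where it changes their call against control. That block also takes out the spread of the control between repeats, which is part of the error of a comparison against control. The p-values of the paired fit against control leave that part out. The fit was tested on simulated ratios.

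The members and the 11 other gene lists were chosen with earlier results of these data known. Named were all members, list genes past the threshold, up to 4 genes per list with the largest knockdown mean, and the 5 genes nearest in profile to Cntnap1 and to Lgi3, leaving out predicted genes, olfactory and vomeronasal receptors and small RNA genes. Alternatives were the block, quantile normalization, centring on the median, every probe set, probe sets with several symbols, only the groups compared, leaving out each replicate and, added after the data were seen, a limit of 1.5-fold in both repeats.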

Additional observations from a re-analysis of the deposited data

Results flagged for a closer look

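For 4 genes both knockdown samples lay on one side of control and both rescue samples on the other. Of all genes, 30.5% lay above control and 31.1% below it in both knockdown repeats, and 24.9% and 29.8% in both rescue repeats. The share of all genes with the groups on opposite sides was not counted, and nothing is read from the number of members. The log2 difference of knockdown minus rescue was 1.42 for Cntnap1, 1.60 for Lgi3, -1.17 for Lgi1 and 0.24 for Adam22. No p-value is given for these differences, since the list was chosen with them known, and for Adam22 the knockdown value of repeat 2 was within 0.01 of control on the log2 scale.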

How the results depend on the processing

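Counting each member under each alternative, direction and side of the threshold were kept in 79 cases for knockdown against control, 97 for rescue against control and 81 for knockdown against rescue. These cases are not all separate checks, and members not called in the main fit are counted too. For knockdown against rescue, the fit of only the groups compared is the main fit itself. Against control, leaving out a replicate of the other group gave the same fit as only the groups compared. No member changed direction under quantile normalization or median centring. With the replicate block (pairing by repeat), 1074 genes passed in place of 61 for knockdown against control, 25 in place of 0 for rescue against control and 123 in place of 14 for knockdown against rescue; members were 5, 0 and 4 in place of 3, 0 and 2, and list genes 25, 2 and 7 in place of 5, 0 and 3. Quantile normalization left 20, 1 and 2 genes, 0 members and, for knockdown against rescue, 1 list gene. Setting column medians to 0 left 4 genes and 0 members for knockdown against rescue, as did keeping probe sets with several symbols. Testing every probe set left 0 genes and 0 members in knockdown against control and against rescue. With only the groups compared, 12 genes, 0 members and 3 list genes passed for knockdown against control, and 176 genes and 6 list genes for rescue against control. The limit of 1.5-fold, chosen after seeing the data, gave 4 members for knockdown against rescue.

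Leaving out 1 replicate, where the lone sample is assumed to vary like the other group, gave 12 to 1272 genes, 0 to 4 members and 3 to 25 list genes for knockdown against control. Knockdown replicate 1 left out gave the 1272, and either rescue replicate the 12 and the 0 members. For rescue against control it gave 0 to 176 genes and 0 to 6 list genes, and for knockdown against rescue 0 to 350 genes, 0 to 4 members and 0 to 10 list genes. Directions changed in knockdown against control for Cntnap2 (-0.24 to 0.30), Cntn1 (-0.11 to 0.28) and Nfasc (-0.030 to 0.089), in rescue against control for Cntn2 (-0.314 to 0.084), Nfasc (-0.182 to 0.021) and Lgi4 (-0.10 to 0.14), and in knockdown against rescue for Cntn1 (-0.25 to 0.15) and Lgi2 (-0.059 to 0.096). Apart from leaving samples out, the cause of these changes was not tested. Signal over background cannot be read from ratios.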
